A study of Homo sapiens with 14 samples.

Results

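LIN28A, LIN28B, IGF2BP1, IGF2BP2, IGF2BP3, HMGA1 and HMGA2 are 7 genes of families known as oncofetal. Many genes of this class are expressed strongly in the embryo, low in adult tissues and again in tumours, to a degree that differs between genes. The members were chosen by gene symbol, with earlier results of these data known, as 7 of the 26485 genes in a table of messenger RNA counts. The cells were H1 (WA01) human embryonic stem cells (hESC), 1 cell line throughout, and cultures taken from them through 5 days of neural crest induction. The high Wnt groups received 10 µM CHIR99021 and the low Wnt groups 3 µM CHIR99021, a GSK3 inhibitor that activates Wnt signaling, during hours 0 to 72. High Wnt + TGFB and low Wnt + TGFB cultures also had recombinant human TGF-beta 1 (TGFB, 5 ng/µL in the unit the labels give) from hour 0 to hour 120. High Wnt + SB4 and low Wnt + SB4 cultures had SB431542 (SB4), an inhibitor of the type I receptors of TGF-beta, activin and nodal, at 10 µM over the same hours. High Wnt and low Wnt cultures had CHIR99021 alone, and hESC were not induced. Each of the 7 groups had 2 libraries of polyadenylated RNA, and the labels do not say whether these came from separate cultures, so p-values measure the spread between libraries, which may be technical.

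LIN28A and LIN28B are RNA-binding proteins that bind precursors of the let-7 microRNAs and block their maturation. LIN28A, through the terminal uridylyl transferases TUT4 and TUT7, sends these precursors to the exonuclease DIS3L2. Mature let-7 in turn represses messenger RNAs with matching sites, among them those of LIN28B, the IGF2BP genes and HMGA2, so that LIN28 and let-7 form a double-negative loop known from stem cells, embryos and tumours. IGF2BP1, IGF2BP2 and IGF2BP3 bind messenger RNAs such as those of IGF2, MYC and ACTB and affect their stability, transport and translation. HMGA1 and HMGA2 are small chromatin proteins that bind the minor groove of AT-rich DNA, and HMGA2 is known for its part in epithelial to mesenchymal transition and in neural crest.

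The library totals ran from 10879287 to 19106827 counts, and the 7 genes together took 0.410% to 0.713% of them. Levels are given as counts per 1000000 counts of the library (CPM). The stem cell markers POU5F1, NANOG, TDGF1 and DPPA4 summed to 123 to 301 CPM in 5 induced groups and 685 to 730 CPM in low Wnt + TGFB, against 1972 to 2093 CPM in hESC. Of 8 neural crest markers, 2 rose against hESC in each high Wnt group (SNAI2 and SOX9) and 3 or 4 fell, while in each low Wnt group 5 rose (also TFAP2A, TFAP2B and NGFR) and 2 or 3 fell, where 31.4% to 36.7% of all genes rose and 31.8% to 36.1% fell. Their median log2 fold change was -0.68 to -0.34 in the high Wnt groups and 1.23 to 1.99 in the low Wnt groups. Their summed levels were 109 to 143 CPM in the high Wnt libraries and 148 to 165 CPM in the low Wnt libraries, against 139 to 148 CPM in hESC. FOXD3 and ETS1 fell in all 6 induced groups, and SOX10, a defining crest gene, rose in none of them and averaged 0.602 to 6.67 CPM there, against 5.24 CPM in hESC. The groups are therefore called by their treatment. TFAP2A, TFAP2B, NGFR, FOXD3, ETS1 and SOX9 were named after their values were seen. Axial progenitor and mesoderm markers summed to 384 to 473 CPM in the high Wnt groups, against 2.83 to 7.14 CPM in the low Wnt groups and 4.10 to 5.43 CPM in hESC.

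The let-7 seed and its possible sites in the genes were read from sequence. Several of the genes were already known as let-7 targets, so matches in them are not an independent test of a link. The 9 mature let-7 family members share 1 seed, bases 2 to 8, shown in capitals for 4 of them because this is the stretch that pairs with a target (RefSeq, GRCh38.p14):
let-7a-5p: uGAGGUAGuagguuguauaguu
let-7d-5p: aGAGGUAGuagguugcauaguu
let-7g-5p: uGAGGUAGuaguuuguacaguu
miR-98-5p: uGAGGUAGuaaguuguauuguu
A GGAG between the arms of the hairpin, given in capitals, is a motif that LIN28 reads in the precursors. Its absence does not show that LIN28 leaves a hairpin unbound. Of the 11 hairpins with both arms in the RefSeq table, 8 held GGAG there, among them let-7a-1 and let-7g, and 3 did not, let-7a-3, let-7b and miR-98. Each example is set on its own line:
let-7a-1 hairpin: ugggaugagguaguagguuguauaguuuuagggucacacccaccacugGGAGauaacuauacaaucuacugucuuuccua
let-7g hairpin: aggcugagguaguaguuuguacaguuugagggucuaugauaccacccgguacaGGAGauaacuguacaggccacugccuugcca
let-7b hairpin: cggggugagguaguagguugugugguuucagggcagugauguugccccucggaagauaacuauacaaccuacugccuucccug
Mature microRNAs have no poly(A) tail and are not measured by these libraries. The rows of the 11 hairpins held 0 to 38 counts per library, which does not report the mature form.

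The counterpart of the seed was searched on the sense strand of the 3′ untranslated region of 1 GENCODE 29 transcript per gene (GRCh38), as CTACCTCA (seed match with a final A), CTACCTC without it or TACCTCA without the first C, counted once each. At least 1 match was found in 7 of the 7 genes, and CTACCTCA in 6, all but HMGA1. Over the 19540 protein-coding genes searched, of any length, 13.5% had any of these matches and 3.17% had CTACCTCA. Longer regions hold more matches, and those of the members ran from 1346 to 6206 bases. Among genes within 20% of a member's length, 14.5% (HMGA1) to 47.2% (IGF2BP1) had any match. CTACCTCA was held by 2.8% (HMGA1) to 10.7% (IGF2BP1) of them. 1 site per gene is shown, with the match in capitals:
LIN28A (chr1:26427348-26427373, plus strand): gcacagcctattgaaCTACCTCAttt
LIN28B (chr6:105078812-105078837, plus strand): acccggttgcaaagtCTACCTCAtgc
IGF2BP1 (chr17:49051061-49051086, plus strand): tgtgtgcgaagtaaaCTACCTCAagg
IGF2BP2 (chr3:185644217-185644242, minus strand): aacacacagaagaagCTACCTCAggt
IGF2BP3 (chr7:23311792-23311817, minus strand): tgcatttttactcaaCTACCTCAggt
HMGA1 (chr6:34245829-34245853, plus strand): tcctctgttcacaaaCTACCTCtgg
HMGA2 (chr12:65963298-65963323, plus strand): gccaacgttcgatttCTACCTCAgca
HMGA2 held 7 matches in 3003 bases. Of the 1870 genes whose 3′ untranslated region was within 20% of that length, 0.1% held at least as many. Each such set of genes of like length includes the member itself. LIN28B and IGF2BP1 held 5 matches each, a number reached by 0.2% and 0.6% of genes of like length. LIN28A, IGF2BP3 and HMGA1 held 1 match each, and 27.6%, 19.4% and 14.5% of genes of like length held at least 1. A match is a run of letters and does not show that let-7 acts there.

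Per length, as counts divided by exon length and scaled to 1000000 per library (TPM), HMGA1 was the highest of the 7 genes in every group and LIN28B the lowest. HMGA1 averaged 1383 to 2023 TPM in the induced groups and 3480 TPM in hESC, and LIN28B averaged 96.0 to 146 TPM in the induced groups and 76.2 TPM in hESC. LIN28A ranked second in hESC, high Wnt and the 3 low Wnt groups, and came after HMGA1 and HMGA2 in high Wnt + TGFB and high Wnt + SB4. LIN28A averaged 1190 TPM in low Wnt + TGFB and 1107 TPM in hESC, the reverse of the order of these groups by CPM. HMGA2 ranked sixth in hESC at 101 TPM. The LIN28A to LIN28B ratio of TPM was 2.02 and 2.13 in high Wnt + TGFB, the lowest of all libraries, against 12.9 and 16.9 in hESC. The HMGA2 to HMGA1 ratio was 0.404 and 0.375 in high Wnt + TGFB, the highest of all libraries, against 0.0344 and 0.0246 in hESC. These ratios are a description and were not tested.

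**Figure D1:**
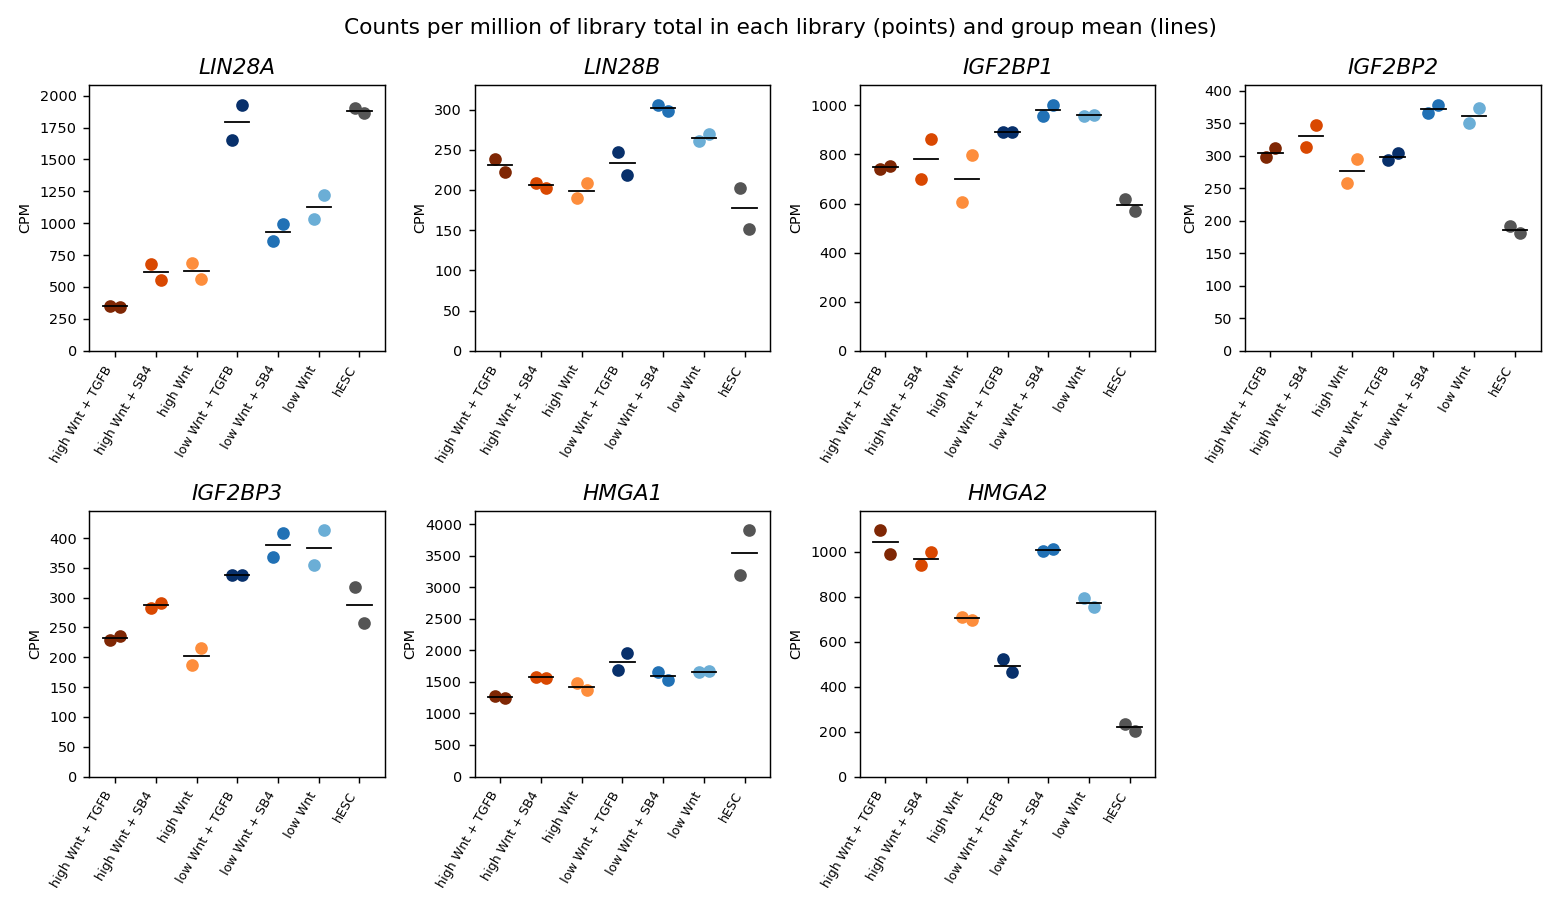
CPM (vertical axes, starting at 0) of the 7 genes in the 14 libraries, with points for libraries and a line at the mean of each group (n = 2). The means of LIN28A and HMGA1 are highest in hESC, at 1882 and 3546 CPM, and that of HMGA2 is lowest there, at 219 CPM. For LIN28A the highest library, at 1930 CPM, belongs to low Wnt + TGFB.

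LIN28A (chr1:26410778-26429728, plus strand, hg38) was high in hESC and low Wnt + TGFB, lower in low Wnt and low Wnt + SB4, and lowest in the high Wnt groups. It had 351 and 346 CPM in high Wnt + TGFB, 677 and 552 CPM in high Wnt + SB4 and 688 and 561 CPM in high Wnt. It had 1655 and 1930 CPM in low Wnt + TGFB, 860 and 997 CPM in low Wnt + SB4 and 1037 and 1218 CPM in low Wnt, against 1903 and 1861 CPM in hESC. All 6 high Wnt libraries lay below all 6 low Wnt libraries, and low Wnt + TGFB was the one induced group whose libraries overlapped hESC. In the order of means, hESC and low Wnt + TGFB did not differ beyond their spread (adjusted p = 0.104, edgeR quasi-likelihood test with Benjamini-Hochberg adjustment), nor did low Wnt and low Wnt + SB4 (0.170) or high Wnt and high Wnt + SB4 (0.696). Low Wnt + SB4 and high Wnt differed (0.0021, in a pair with 45.4% of all genes called), as did high Wnt + TGFB and high Wnt + SB4 (0.000146; 24.2% of all genes called).

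LIN28B (chr6:104957048-105083332, plus strand) was highest in low Wnt + SB4 and lowest in hESC. It had 239 and 223 CPM in high Wnt + TGFB, 208 and 203 CPM in high Wnt + SB4 and 190 and 208 CPM in high Wnt. It had 248 and 218 CPM in low Wnt + TGFB, 306 and 298 CPM in low Wnt + SB4 and 260 and 269 CPM in low Wnt, against 203 and 151 CPM in hESC. No neighbours in the order of group means differed beyond their spread, and the highest mean was 1.71 times the lowest.

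IGF2BP1 (chr17:48997412-49056145, plus strand) was higher in the low Wnt groups. It had 743 and 754 CPM in high Wnt + TGFB, 699 and 863 CPM in high Wnt + SB4 and 605 and 798 CPM in high Wnt. It had 892 CPM in both low Wnt + TGFB libraries, 958 and 1003 CPM in low Wnt + SB4 and 955 and 963 CPM in low Wnt, against 617 and 569 CPM in hESC. The libraries of high Wnt overlapped those of hESC, and no neighbours in the order differed beyond their spread.

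IGF2BP2 (chr3:185643739-185825039, minus strand) was lowest in hESC. It had 298 and 312 CPM in high Wnt + TGFB, 313 and 348 CPM in high Wnt + SB4 and 258 and 295 CPM in high Wnt. It had 294 and 304 CPM in low Wnt + TGFB, 366 and 379 CPM in low Wnt + SB4 and 351 and 373 CPM in low Wnt, against 191 and 181 CPM in hESC. All 12 induced libraries lay above both hESC libraries, and the step between high Wnt, the lowest induced group, and hESC was the one between neighbours that passed the test (edgeR adjusted p = 0.000115).

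IGF2BP3 (chr7:23310209-23470376, minus strand) was the member of the family with hESC in the middle of its order. It had 229 and 237 CPM in high Wnt + TGFB, 283 and 291 CPM in high Wnt + SB4 and 187 and 216 CPM in high Wnt. It had 338 CPM in both low Wnt + TGFB libraries, 368 and 409 CPM in low Wnt + SB4 and 355 and 413 CPM in low Wnt, against 319 and 258 CPM in hESC. The high Wnt libraries lay below those of every other group. Among neighbours in the order the step between high Wnt + TGFB and high Wnt + SB4 was the one that passed the test (adjusted p = 0.0427).

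HMGA1 (chr6:34236800-34246231, plus strand) was high in hESC and lower in every culture. It had 1270 and 1240 CPM in high Wnt + TGFB, 1583 and 1567 CPM in high Wnt + SB4 and 1475 and 1377 CPM in high Wnt. It had 1693 and 1951 CPM in low Wnt + TGFB, 1653 and 1525 CPM in low Wnt + SB4 and 1656 and 1671 CPM in low Wnt, against 3191 and 3901 CPM in hESC. No induced library overlapped hESC, and among induced groups no neighbours in the order differed beyond their spread. Across the order, high Wnt + TGFB, the lowest group, was lower than low Wnt + TGFB by 0.50 on the log2 scale (edgeR adjusted p = 0.00108; 46.3% of all genes called) and lower than low Wnt, low Wnt + SB4 and high Wnt + SB4, with log2 fold changes of -0.45 (0.00269; 39.4% called), -0.38 (0.00841; 43.1% called) and -0.33 (0.0324; 24.2% called). HMGA1 has near-identical processed copies in the genome and multiply mapped reads were not counted, so its level may be too low in every library.

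HMGA2 (chr12:65824460-65966291, plus strand) ran the other way. It had 1096 and 993 CPM in high Wnt + TGFB, 943 and 999 CPM in high Wnt + SB4 and 712 and 699 CPM in high Wnt. It had 523 and 465 CPM in low Wnt + TGFB, 1006 and 1012 CPM in low Wnt + SB4 and 794 and 756 CPM in low Wnt, against 234 and 205 CPM in hESC. Low Wnt + TGFB lay between hESC and every other induced group without overlap, and passed the test against both of its neighbours, high Wnt (adjusted p = 4.11e-05, with 48.5% of all genes called) and hESC (1.54e-07). High Wnt + SB4 and low Wnt also differed (0.0253, with 35.2% of all genes called), and the other 3 steps between neighbours did not pass. Annotated rows that overlap HMGA2 on the opposite strand, RPSAP52 and LOC100129940, held 0 to 19 counts per library, MIR6835 within HMGA1 held 1 to 13, IGF2BP2-AS1 within IGF2BP2 held 0 or 1, and none shared an exon with a member.

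Induction changed most members, as it changed most genes. Against hESC, HMGA2 and IGF2BP2 rose in 6 of 6 induced groups, HMGA1 fell in 6 of 6 and LIN28A fell in 5 of 6, all in comparisons that share the same 2 hESC libraries. A gene was called where its adjusted p was under 0.05. In high Wnt + TGFB 5 of the 7 members were called (2 higher, 3 lower), where 72.1% of the 16149 genes tested were called (36.7% higher, 35.5% lower). In high Wnt + SB4 5 were called (3 higher, 2 lower), where 72% of all genes were (36.4% higher, 35.7% lower). In high Wnt 5 were called (2 higher, 3 lower), where 72.4% of all genes were (36.3% higher, 36.1% lower). In low Wnt + TGFB 4 were called (3 higher, 1 lower), where 63.1% of all genes were (31.4% higher, 31.8% lower). In low Wnt + SB4 7 were called (5 higher, 2 lower), where 71.2% of all genes were (35.6% higher, 35.6% lower), and in low Wnt 7 (5 higher, 2 lower), where 71.4% were (35.8% higher, 35.6% lower). With 7 members these shares are near the background, and the sizes that follow have a background too. The median absolute log2 fold change of all genes was 0.66 in low Wnt + TGFB and 0.83 to 0.90 in the other induced groups. LIN28B, IGF2BP1 and IGF2BP3 lay below that median in every induced group, and IGF2BP2 lay above it only in low Wnt + SB4 and low Wnt. HMGA1 and HMGA2 lay above it in every group, and LIN28A in all but low Wnt and low Wnt + TGFB.

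LIN28A fell by 2.57 ± 0.13 on the log2 scale (SE) in high Wnt + TGFB against hESC, to 0.168 of the hESC level (edgeR adjusted p = 4.78e-11). Its log2 fold change was -1.75 in high Wnt + SB4, -1.67 in high Wnt, -1.12 in low Wnt + SB4, -0.83 in low Wnt and -0.24 (not called) in low Wnt + TGFB. The sign was negative in every induced group and the called sizes spread from 0.563 to 0.168 of hESC. LIN28B rose in low Wnt + SB4 by 0.68 ± 0.11 (adjusted p = 4.09e-05) and in low Wnt by 0.49 ± 0.11 (0.000793). In the other 4 induced groups its differences lay between 0.09 and 0.25 and were not called. LIN28B was called in those 4 without hESC replicate 1, at log2 fold changes of 0.29 to 0.46, and its sign turned in high Wnt + SB4 (-0.07) and high Wnt (-0.05) without hESC replicate 2. In high Wnt + TGFB it was also called without low Wnt + TGFB replicate 1 (adjusted p = 0.0456), with library totals as the scale (0.00891), with no filter on low counts (0.0353) and with a replicate block (0.0395). In low Wnt + TGFB it was also called without low Wnt + TGFB replicate 2 (0.0467), with library totals (0.00859) and with no filter (0.0498).

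IGF2BP2 rose most in low Wnt + SB4, by 0.90 ± 0.09 (log2, SE, adjusted p = 1.49e-07), and least in high Wnt, by 0.49 ± 0.09 (0.000115). IGF2BP1 rose in the 3 low Wnt groups by 0.42 to 0.63 and in high Wnt + SB4 by 0.26 ± 0.11 (adjusted p = 0.0454). The last call was lost with DESeq2 (adjusted p = 0.0868), with RLE scaling (0.0999), in a fit of only the 2 groups compared (0.0987), and without high Wnt + SB4 replicate 2 (0.443, at a log2 fold change of 0.11), low Wnt + TGFB replicate 1 or either library of high Wnt + TGFB, low Wnt, low Wnt + SB4 or hESC. In high Wnt IGF2BP1 was called without high Wnt replicate 1 (0.34, adjusted p = 0.0174) and turned to -0.02 without high Wnt replicate 2, and in high Wnt + TGFB it was called with library totals (0.34, 0.018). IGF2BP3 fell by 0.59 ± 0.11 in high Wnt (8.57e-05) and by 0.44 ± 0.10 in high Wnt + TGFB (0.00117). It rose by 0.33 ± 0.10 both in low Wnt + SB4 (0.00878) and in low Wnt (0.0103), and was not called in the other 2 groups. Both rises were lost without hESC replicate 2 (adjusted p = 0.0963 and 0.0848), the first also without low Wnt + SB4 replicate 2 (0.0822) and the second without low Wnt replicate 2 (0.128).

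HMGA2 rose by 2.11 ± 0.10 on the log2 scale in high Wnt + TGFB against hESC, or 4.33-fold (adjusted p = 8.17e-12). It rose by 2.11 in low Wnt + SB4, 2.01 in high Wnt + SB4, 1.73 in low Wnt, 1.61 in high Wnt and 1.00 in low Wnt + TGFB. HMGA1 fell by 1.64 ± 0.11 in high Wnt + TGFB, to 0.321 of hESC, and by 1.14 ± 0.11 in low Wnt + TGFB, to 0.455 of hESC, with the other 4 groups between. The pair of HMGA genes thus moved apart in all 6 groups, and every call on LIN28A, HMGA1, HMGA2 and IGF2BP2 against hESC was kept under each of the alternatives run. Scaling by library totals in place of TMM moved the median gene by 0.134 to 0.173 on the log2 scale in high Wnt + SB4, high Wnt + TGFB and low Wnt + TGFB against hESC, and turned none of these directions.

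**Figure D2:**
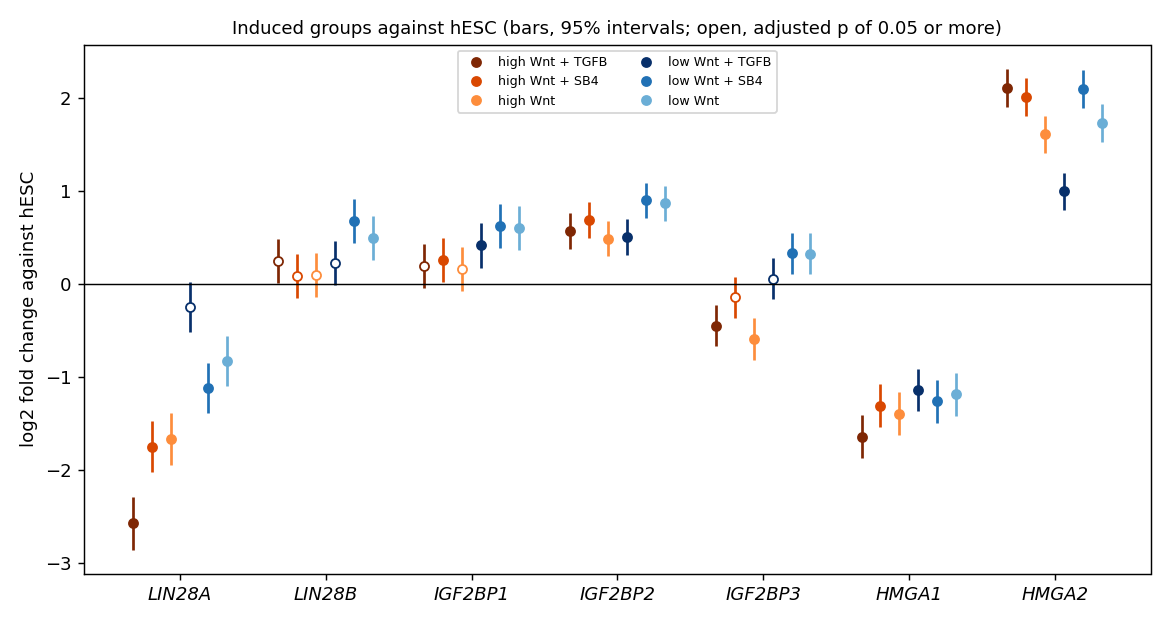
Log2 fold changes of the 7 genes in the 6 induced groups against hESC, with 95% intervals as bars and filled points where the adjusted p was under 0.05. HMGA2 lies above 0 and HMGA1 below 0 in every group, and LIN28A runs between -2.57 in high Wnt + TGFB and -0.24 in low Wnt + TGFB.

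The higher dose of CHIR99021 went with lower LIN28A and IGF2BP3 with each additive and, without TGFB, with lower LIN28B and IGF2BP1. Without an additive 5 of 7 members were called in high Wnt against low Wnt, all lower, where 38.5% of all genes were called (19.4% higher, 19.1% lower). IGF2BP3 had 187 and 216 CPM in high Wnt, against 355 and 413 CPM in low Wnt, and fell by 0.92 ± 0.11 (log2, adjusted p = 2.35e-06). LIN28A fell by 0.84 ± 0.13 (5.62e-05), IGF2BP1 by 0.44 ± 0.11 (0.00511), LIN28B by 0.40 ± 0.11 (0.00915) and IGF2BP2 by 0.38 ± 0.09 (0.00292). HMGA1 (-0.21) and HMGA2 (-0.12) were not called. The calls on IGF2BP1 (adjusted p = 0.0948) and LIN28B (0.0698) were lost without high Wnt replicate 1, and that on LIN28B also without low Wnt replicate 2 (0.0507).

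With SB4 at both doses 4 of 7 members were called, all lower in high Wnt + SB4 than in low Wnt + SB4, where 30.1% of all genes were called (15.3% higher, 14.8% lower). LIN28A fell by 0.63 ± 0.13 (adjusted p = 0.000979), LIN28B by 0.59 ± 0.11 (0.000502), IGF2BP3 by 0.47 ± 0.10 (0.002) and IGF2BP1 by 0.37 ± 0.11 (0.02). The IGF2BP1 call was lost without high Wnt + SB4 replicate 1 (0.215) or without low Wnt + SB4 replicate 1 (0.0562) or replicate 2 (0.0976). With TGFB at both doses 4 of 7 were called in high Wnt + TGFB against low Wnt + TGFB (1 higher, 3 lower), where 46.3% of all genes were (22.8% higher, 23.5% lower). LIN28A fell by 2.33 ± 0.13 to 0.199 of its low Wnt + TGFB level (3.86e-10) and HMGA2 rose by 1.12 ± 0.09 or 2.17-fold (4.65e-08), while HMGA1 and IGF2BP3 each fell by 0.50 (0.00108 and 0.000886). The 2 largest dose differences of any member, in LIN28A and HMGA2, were both found in the presence of TGFB. IGF2BP1 (-0.22, adjusted p = 0.123) was not called there, and was called without either high Wnt library (0.0498 for each) and in a fit of only the 2 groups (0.0219). Between the doses cell type markers differed too: the 5 axial progenitor and mesoderm markers summed to 447 to 467 CPM in high Wnt, against 5.79 to 6.00 CPM in low Wnt, and 4 neural progenitor markers (SOX1, PAX6, HES5, OLIG3) to 6.86 to 8.75 CPM in high Wnt, against 241 to 243 CPM in low Wnt. All 4 stem cell markers fell, to sums of 123 to 141 CPM in high Wnt, against 273 to 301 CPM in low Wnt. With TGFB at both doses all 4 stem cell markers and all 4 endoderm markers (SOX17, FOXA2, GATA4, GATA6) fell. The stem cell markers summed to 147 to 148 CPM in high Wnt + TGFB, against 685 to 730 CPM in low Wnt + TGFB, and the endoderm markers to 3.65 to 5.06 CPM in high Wnt + TGFB, against 43.5 to 96.4 CPM in low Wnt + TGFB. The part of these markers' cells in the values of the 7 genes was not tested.

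TGF-beta 1 moved LIN28A and HMGA2 in opposite directions from each other at each dose, and each of them in opposite directions at the 2 doses. LIN28A fell to 348 ± 3.94 CPM in high Wnt + TGFB, against 624 ± 89.7 CPM in high Wnt (SD, n = 2 each), a log2 fold change of -0.90 ± 0.13 (SE, edgeR adjusted p = 0.000267). It rose to 1792 ± 194 CPM in low Wnt + TGFB, against 1128 ± 128 CPM in low Wnt, by 0.59 ± 0.13 (adjusted p = 0.00252). HMGA2 rose to 1044 ± 73.1 CPM in high Wnt + TGFB, against 706 ± 9.19 CPM in high Wnt, by 0.50 ± 0.09 (0.00245). It fell to 494 ± 40.7 CPM in low Wnt + TGFB, against 775 ± 26.6 CPM in low Wnt, with a log2 fold change of -0.73 ± 0.09 (1.63e-05). In none of these 4 pairs did the libraries overlap, and the 4 calls were kept without any single library and under every other alternative run. The difference between doses was itself tested: the effect of TGFB in high Wnt minus that in low Wnt was -1.49 ± 0.18 for LIN28A (adjusted p = 3.15e-05) and 1.24 ± 0.13 for HMGA2 (6.85e-06).

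Among all members, 2 of 7 were called for TGFB in high Wnt, HMGA2 higher and LIN28A lower, where 7.25% of all genes were called (3.75% higher, 3.49% lower). In low Wnt 3 of 7 were called, LIN28A higher and HMGA2 and IGF2BP2 lower, where 26% of all genes were called (13.7% higher, 12.2% lower). IGF2BP2 had 294 and 304 CPM in low Wnt + TGFB, against 351 and 373 CPM in low Wnt, with a log2 fold change of -0.36 ± 0.09 (adjusted p = 0.0066). That call was lost without low Wnt replicate 2 (0.0624) or low Wnt + TGFB replicate 1 (0.0671). For the difference between doses 3 of 7 members were called (2 higher, 1 lower), where 11.8% of all genes were (5.73% higher, 6.06% lower). Beside LIN28A and HMGA2 this was IGF2BP2 at 0.44 ± 0.13 (0.031). It was lost with library totals as the scale (0.0502), without high Wnt replicate 1 (0.162), without low Wnt + SB4 replicate 2 (0.0547), and without either library of high Wnt + TGFB, low Wnt + TGFB or low Wnt. LIN28B (0.42 ± 0.16, 0.101) and IGF2BP3 (0.42 ± 0.15, 0.0831) were not called, and were called without the hESC libraries (0.0339 and 0.047) and without hESC replicate 2 alone (0.0327 and 0.0452), LIN28B also without hESC replicate 1 (0.0355). In low Wnt alone, LIN28B (-0.27, adjusted p = 0.0873) and IGF2BP3 (-0.27, 0.0687) were not called for TGFB, and were called without the hESC libraries (0.0315 and 0.042) or hESC replicate 2 (0.0293 and 0.039), LIN28B also without hESC replicate 1 (0.0403). Both comparisons with TGFB use the high Wnt or low Wnt libraries that also serve as controls for SB4.

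In hESC and low Wnt + TGFB the stem cell markers and LIN28A stood highest and HMGA2 lowest of the groups. POU5F1 had 46.9 and 41.1 CPM in low Wnt + TGFB, against 1.92 and 4.35 CPM in low Wnt, and NANOG had 16.1 and 19.9 CPM in low Wnt + TGFB, against 0.721 and 1.67 CPM in low Wnt. All 4 stem cell markers rose in this comparison, and they summed to 685 to 730 CPM in low Wnt + TGFB, against 273 to 301 CPM in low Wnt. The endoderm markers rose as well, 4 of 4, and summed to 43.5 to 96.4 CPM in low Wnt + TGFB, against 1.74 to 2.09 CPM in low Wnt. All 4 neural progenitor markers fell, and summed to 61.6 to 63.3 CPM in low Wnt + TGFB, against 241 to 243 CPM in low Wnt. At the high dose the stem cell sum did not follow LIN28A, with 147 to 148 CPM in high Wnt + TGFB, against 123 to 141 CPM in high Wnt. DPPA4 was the one of the 4 at 1 CPM or more there, and NANOG had no counts in high Wnt. The part of these other cells in the values of LIN28A and HMGA2 was not tested, and in bulk samples fewer cells of a type and less RNA per cell cannot be told apart.

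**Figure D3:**
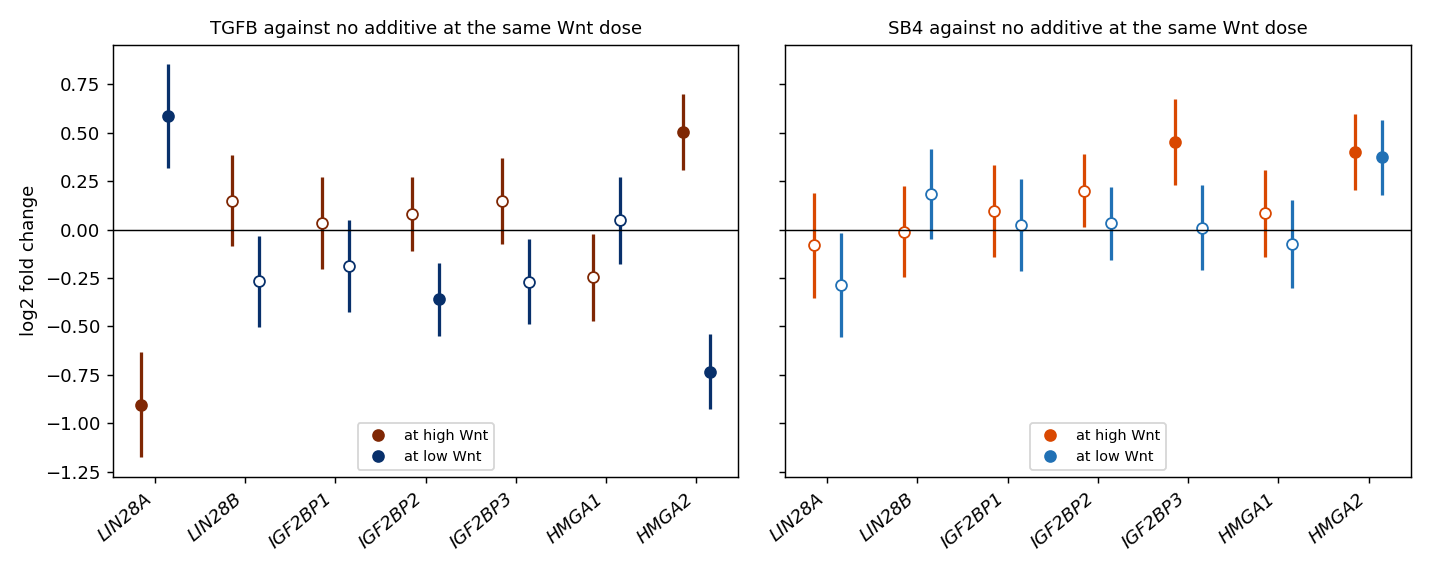
Log2 fold changes (vertical axis) of the 7 genes for TGFB (left) and SB4 (right) against no additive, in high Wnt and in low Wnt, with 95% intervals as bars and filled points where the adjusted p was under 0.05. Under TGFB, LIN28A lies at -0.90 in high Wnt and 0.59 in low Wnt, and HMGA2 at 0.50 in high Wnt and -0.73 in low Wnt.

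**Figure D4:**
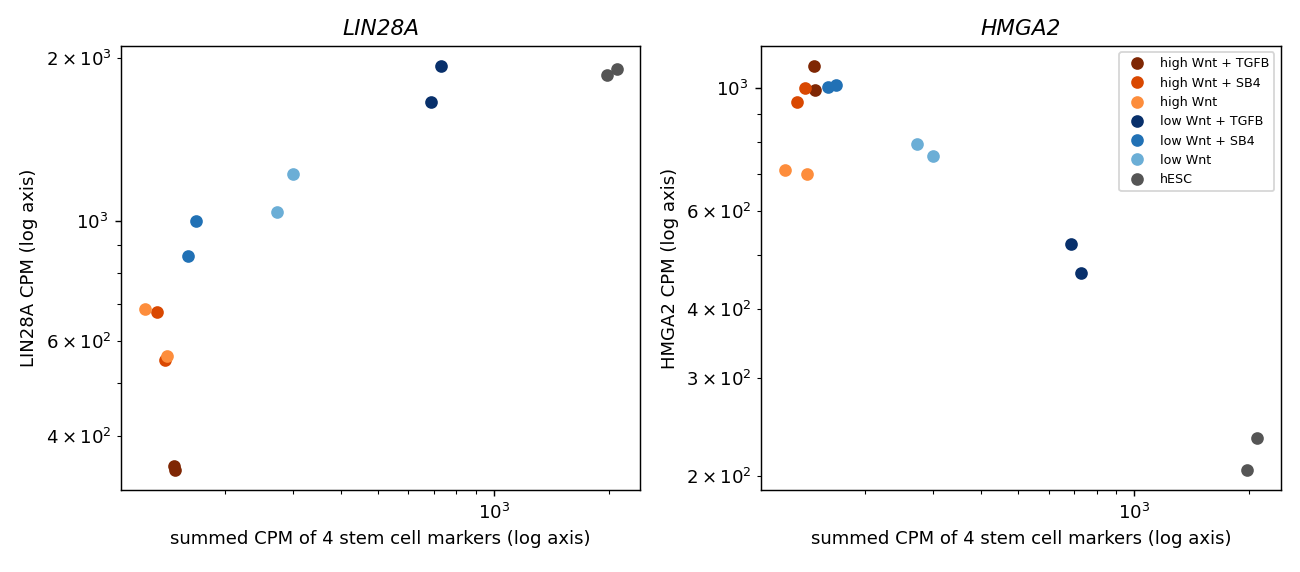
LIN28A and HMGA2 (CPM, log axis) against the summed CPM of POU5F1, NANOG, TDGF1 and DPPA4 (log axis) in the 14 libraries. Low Wnt + TGFB lies between hESC and the other cultures on the horizontal axis, and among the libraries with marker sums of 123 to 168 CPM LIN28A still ranges between 346 and 997 CPM.

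SB431542 raised HMGA2 at both doses and IGF2BP3 at the high dose. HMGA2 averaged 971 ± 39.9 CPM in high Wnt + SB4 and 706 ± 9.19 CPM in high Wnt (SD, n = 2 each), a rise of 0.40 ± 0.09 on the log2 scale (SE, edgeR adjusted p = 0.00519). It averaged 1009 ± 3.69 CPM in low Wnt + SB4 and 775 ± 26.6 CPM in low Wnt, a rise of 0.37 ± 0.09 (0.0138) that was lost without low Wnt replicate 2 (0.129) or without low Wnt + SB4 replicate 1 (0.0725) or replicate 2 (0.0937). IGF2BP3 had 283 and 291 CPM in high Wnt + SB4, against 187 and 216 CPM in high Wnt, and rose by 0.45 ± 0.10 (0.00553), a call lost without high Wnt replicate 1 (0.0802). In low Wnt its log2 fold change was 0.01, within an interval of -0.21 to 0.23.

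In all, 2 of 7 members were called for SB4 in high Wnt, both higher, where 21.5% of all genes were called (9.94% higher, 11.6% lower). In low Wnt 1 of 7 was called, higher, where 11.2% of all genes were (4.84% higher, 6.39% lower). LIN28A was not called at either dose (-0.08, interval -0.35 to 0.19, in high Wnt and -0.29, interval -0.56 to -0.02, in low Wnt). For the difference of the SB4 effect between doses edgeR called 0 of 7 members, where 6.07% of all genes were called (2.71% higher, 3.36% lower). 1 had an unadjusted p under 0.05, IGF2BP3 (0.44 ± 0.15, adjusted p = 0.0943), and DESeq2 called 1, again IGF2BP3 (0.0416), as did edgeR without the hESC libraries (0.0422) or hESC replicate 2 alone (0.0422). The HMGA2 difference was 0.03 with an interval of -0.25 to 0.30. TGF-beta 1 and its receptor inhibitor thus both raised HMGA2 in high Wnt, while in low Wnt TGFB lowered it and SB4 raised it. Neural progenitor markers moved beside SB4, with sums of 77.6 to 98.8 CPM in high Wnt + SB4, against 6.86 to 8.75 CPM in high Wnt, and 372 to 414 CPM in low Wnt + SB4, against 241 to 243 CPM in low Wnt. All 4 stem cell markers fell with SB4 in low Wnt, with sums of 160 to 168 CPM in low Wnt + SB4, against 273 to 301 CPM in low Wnt, and none was called in high Wnt. Of the 5 axial progenitor and mesoderm markers 2 fell in high Wnt, with sums of 384 to 460 CPM in high Wnt + SB4, against 447 to 467 CPM in high Wnt, and 1 fell in low Wnt. The part of these cells in the rise of HMGA2 was not tested.

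Several genes that process or remove let-7 precursors stood higher in the induced groups than in hESC. Of 13 genes of let-7 processing and decay, 8 rose and 2 fell in high Wnt against hESC, and likewise in low Wnt. Of all genes 72.4% were called in high Wnt (36.3% higher, 36.1% lower) and 71.4% in low Wnt (35.8% higher, 35.6% lower), so that the share of the list that was called is near the background. The list's median log2 fold change was 0.47 in high Wnt and 0.43 in low Wnt, where the median of all genes was 0.01 and 0.00, as for every list that follows. DICER1, which cuts the precursor, stood in high Wnt at 193 and 261 CPM, in low Wnt at 204 and 197 CPM and in hESC at 101 and 61.2 CPM, and rose by 1.41 ± 0.17 in high Wnt (1.6e-06) and 1.22 ± 0.17 in low Wnt (8.76e-06). TUT4 (ZCCHC11 in the table), the LIN28 partner that tails the precursor, stood in high Wnt at 196 and 223 CPM, in low Wnt at 316 and 323 CPM and in hESC at 65.6 and 45.5 CPM. It rose by 1.84 ± 0.13 in high Wnt (2.17e-09) and 2.44 ± 0.13 in low Wnt (9.68e-11). In all 6 induced groups 6 genes rose, DICER1, TUT4, TUT7, DIS3L2 and the Argonautes AGO3 and AGO4, and 2 fell, TARBP2, a partner of DICER1, and XPO5, which exports precursors. XPO5 is named for its count alone, after its values were seen. DROSHA, which makes the precursor, was called in none of the 6.

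TUT4 also moved with TGFB, falling by 0.99 ± 0.12 in low Wnt + TGFB against low Wnt (adjusted p = 1.65e-05), with -0.33 ± 0.12 in high Wnt + TGFB against high Wnt (0.135). The difference between doses was 0.66 ± 0.18 (0.0203). Across the list 2 of 13 fell with TGFB in high Wnt, AGO2 and AGO3, where 3.49% of all genes fell. In low Wnt 2 fell, TUT4 and AGO4, and AGO1 rose, where 12.2% of all genes fell and 13.7% rose. AGO1 and AGO2 were likewise named after their values were seen.

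**Figure D5:**
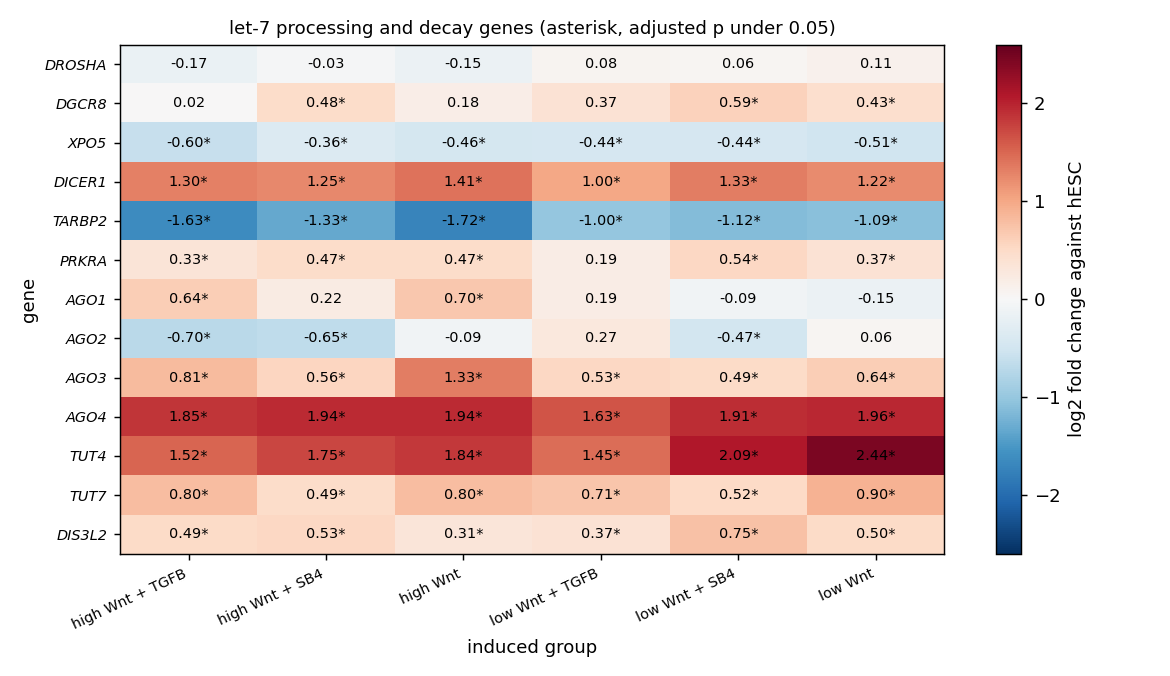
Log2 fold changes of the 13 genes of let-7 processing and decay (rows) in the 6 induced groups against hESC (columns), with an asterisk where the adjusted p was under 0.05. TUT4 and AGO4 show the largest rises of the list, with 2.44 and 1.96 in low Wnt, and TARBP2 the largest fall, with -1.72 in high Wnt.

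Host transcripts of let-7 hairpins were low apart from HUWE1, which carries let-7f-2 and miR-98 and averaged 457 CPM in high Wnt, 540 CPM in low Wnt and 403 CPM in hESC, not called in either. MIR100HG, which hosts let-7a-2, averaged 2.40 CPM in high Wnt, 7.78 CPM in low Wnt and 1.02 CPM in hESC and rose in both (2 of 4 list members rose and 1 fell in each, where 72.4% of all genes were called in high Wnt and 71.4% in low Wnt). MIRLET7BHG averaged 0.0342 CPM in high Wnt, 0 in low Wnt and 1.56 CPM in hESC. MIR99AHG, host of let-7c, averaged 6.15 CPM in low Wnt + SB4 and 0.689 CPM in low Wnt, and rose there by 3.14 ± 0.39 (7.38e-05). It had no counts in hESC, which allows up to 3 counts per library, or 0.212 and 0.232 CPM in hESC replicates 1 and 2.

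Genes reported as let-7 targets moved both ways. Of 25, 15 rose and 5 fell in high Wnt against hESC, and the counts in low Wnt were the same, with a median of 0.46 in both. The share called is near that of all genes, 72.4% in high Wnt (36.3% higher) and 71.4% in low Wnt (35.8% higher). CCND1, a G1 cyclin, rose by 1.34 ± 0.09 in high Wnt (7.41e-10) and 2.05 ± 0.09 in low Wnt (6.14e-12). FIGNL2 rose by 3.26 ± 0.14 in high Wnt and 3.42 ± 0.14 in low Wnt. CCND2, another G1 cyclin, rose by 2.34 ± 0.10 in high Wnt and 1.69 ± 0.10 in low Wnt. MYC fell by 2.25 ± 0.14 in high Wnt and 1.66 ± 0.13 in low Wnt. TRIM71, a let-7 target and stem cell ubiquitin ligase, was not called in either (-0.47 in high Wnt and 0.43 in low Wnt). MYCN fell by 1.28 ± 0.19 in low Wnt (edgeR adjusted p = 1.67e-05) and was not called lower in high Wnt. With TGFB in high Wnt 1 rose and 7 fell (median -0.23, all genes 0.00), where 3.75% of all genes rose and 3.49% fell, among them IGF1R by 0.61 ± 0.11 (0.00249), the receptor of IGF1 and IGF2, and TRIM71 by 0.77 ± 0.22 (0.0383). With TGFB in low Wnt 5 rose and 8 fell, where 13.7% of all genes rose and 12.2% fell.

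RNAs reported as bound by IGF2BP proteins held no single direction, with 6 of 11 higher and 5 lower in high Wnt against hESC, and 6 higher and 4 lower in low Wnt (medians 0.39 and 0.23), where 72.4% and 71.4% of all genes were called, about evenly in both directions. IGF2, the fetal growth factor that gave the family its name, had 370 and 425 counts in high Wnt + TGFB, against 153 and 155 in high Wnt, and rose by 1.34 ± 0.22 (adjusted p = 0.00118). It had 6 and 10 counts in low Wnt + TGFB, against 191 and 171 in low Wnt, and fell by 4.39 ± 0.34 (1.39e-07). H19, the noncoding RNA of the same imprinted locus, rose by 1.37 ± 0.22 in high Wnt + TGFB (0.000973) and fell by 3.06 ± 0.29 in low Wnt + TGFB (6.78e-07). The differences between doses were 5.73 ± 0.41 for IGF2 (edgeR adjusted p = 2.5e-07) and 4.42 ± 0.37 for H19 (5.58e-07), with signs like those of HMGA2. IGF2 and H19 were the only 2 of the 11 called for this difference. Of all genes 5.73% were called higher for it and 6.06% lower. IGF2 had 0 counts in both hESC libraries, which allows up to 3 counts in each, and its level is uncertain because 76.1% of its exon length is shared with the annotated row INS-IGF2 and reads of several genes were not counted.

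Among 8 other high mobility group genes 3 rose and 4 fell in high Wnt against hESC, and 2 rose and 2 fell in low Wnt (medians -0.13 and -0.12; 72.4% and 71.4% of all genes called). HMGB2, a DNA-bending protein of dividing cells, averaged 882 CPM in high Wnt, 854 CPM in low Wnt and 187 CPM in hESC, and rose by 2.16 ± 0.11 and 2.10 ± 0.11. HMGB3 fell by 0.85 ± 0.09 in high Wnt (4.45e-07) and 0.77 ± 0.09 in low Wnt (1.57e-06). Several of these genes, like HMGA1, have processed copies that share reads.

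Of 10 other oncofetal genes 6 rose and 2 fell in high Wnt against hESC and 4 rose and 3 fell in low Wnt. The list's medians were 0.79 and 0.30. Of all genes 72.4% were called in high Wnt (36.3% higher, 36.1% lower) and 71.4% in low Wnt (35.8% higher, 35.6% lower). The share of the list called in either direction is near that background. GPC3, a cell surface glypican, averaged 718 CPM in high Wnt, 81.4 CPM in low Wnt and 151 CPM in hESC, and so rose in high Wnt by 2.17 ± 0.10 (1.04e-11) and fell in low Wnt by 0.98 ± 0.10 (1.79e-07). SALL4, a zinc finger factor of stem cells, rose by 0.96 ± 0.13 in high Wnt (3.65e-06) and was not called in low Wnt (0.18 ± 0.13). DLK1, a membrane protein of fetal tissue related to Notch ligands, averaged 25.6 CPM in high Wnt, 208 CPM in low Wnt and 0.992 CPM in hESC. ROR1, a receptor of Wnt5a, fell by 2.52 ± 0.13 in high Wnt (4.08e-11) and 0.37 ± 0.12 in low Wnt (0.00987).

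Of 9 transition genes linked to HMGA2, 8 rose and 1 fell in high Wnt against hESC, and 5 rose and 3 fell in low Wnt, where 72.4% of all genes were called in high Wnt (36.3% higher) and 71.4% in low Wnt (35.8% higher). The medians were 1.55 in high Wnt and 1.56 in low Wnt. ZEB2, a repressor of epithelial genes, stood in high Wnt at 202 and 171 CPM, in low Wnt at 259 and 273 CPM and in hESC at 0.212 and 0.309 CPM. ZEB1, its relative, averaged 97.9 CPM in high Wnt, 36.7 CPM in low Wnt and 0.151 CPM in hESC. CDH1, the epithelial cadherin, averaged 0.447 CPM in high Wnt, 11.3 CPM in low Wnt and 317 CPM in hESC. With TGFB in low Wnt 3 of the 9 rose and 4 fell, where 13.7% of all genes rose and 12.2% fell. CDH1, which rose, averaged 132 CPM in low Wnt + TGFB, against 11.3 CPM in low Wnt (3.46 ± 0.16, edgeR adjusted p = 4.29e-10). HMGA2 fell in the same libraries, and a link between CDH1 and HMGA2 was not tested. SNAI2, a crest and transition factor, rose by 0.68 ± 0.16 with SB4 in high Wnt (0.00654) and by 0.64 ± 0.17 in low Wnt (0.0213), and fell by 0.71 ± 0.17 with TGFB in high Wnt (0.0152).

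The genes closest in pattern to each member were taken as those with the highest Pearson correlation of log2 CPM over the 14 libraries. This is a description of libraries that share groups and depth. Symbols that start with LOC, LINC, MIR or SNOR, hold orf, or end in -AS, -DT or -IT (with or without a number) were not compared. The 11177 other genes compared had a mean of at least 10 CPM in their highest group. Such a gene may be under 10 CPM in other groups. The closest genes were TRIM22 (r = 0.97), CTSV (0.97) and OLFM1 (0.96) for LIN28A, and CMPK1 (0.95), HACD4 (0.95) and BCL2L2 (0.94) for LIN28B. For IGF2BP1 they were MGC27345 (0.98), EXOC6 (0.96) and ZNF629 (0.96), for IGF2BP2 DDX17, FBXW8 and SRSF12 (0.98 each), and for IGF2BP3 ABCC4 (0.98), TTC31 (0.95) and TBC1D14 (0.94). For HMGA1 they were TRIM28 (0.99), SRM (0.98) and TUBA1C (0.98), and for HMGA2 MAPK8IP3 (0.99), DDX26B (0.98) and TCTN1 (0.98). TRIM22 averaged 5.21 CPM in high Wnt + TGFB, 50.8 CPM in low Wnt + TGFB and 67.7 CPM in hESC, in the same order as LIN28A. Among the members, HMGA1 and HMGA2 had r = -0.92, LIN28A and HMGA2 r = -0.76, and IGF2BP1 and LIN28B r = 0.85.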

How the data were processed

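Per the submitters' processing notes, HISAT2 2.2.0, SAMtools 1.10, bcl2fastq and featureCounts 2.0.0 were used with hg38. The authors deposited raw counts per gene, made per the file headers from reverse-stranded fragments over exons of the UCSC annotation, without multiply mapped reads or reads of several genes. The deposited gene length in bases gave TPM. CPM were counts over library totals. In R 4.3.3, edgeR 4.0.16 (limma 3.58.1) kept 16149 genes (filterByExpr), scaled by TMM, and ran quasi-likelihood tests in 1 fit of 14 libraries (7 residual degrees of freedom), with Benjamini-Hochberg adjustment over all genes and calls at 0.05. The script was tested on simulated data. Replicate libraries differed by more than sampling noise in every group (chi-square per degree of freedom 5.26 to 14.1). The members, lists and tests were chosen with earlier results of these data known. Named genes were the members, up to 4 genes with the smallest p per list, a panel, the 3 closest patterns and overlapping rows. Alternatives were DESeq2 1.42.0, RLE, library totals, no filter, only the groups compared, no hESC libraries, a replicate block and leaving out each library. Sequences came from RefSeq GRCh38.p14 and GENCODE 29 and were read with Python 3.11.15.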

Additional observations from a re-analysis of the deposited data

Results flagged for a closer look

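The effect of TGFB differed between the doses of CHIR99021 for 3 members, by the test of the difference in the fit of all libraries. For LIN28A the effect in high Wnt minus that in low Wnt was -1.49 on the log2 scale (edgeR adjusted p = 3.15e-05), with both libraries of high Wnt + TGFB below both of high Wnt and both of low Wnt + TGFB above both of low Wnt. For HMGA2 it was 1.24 (6.85e-06), with libraries that overlapped at neither dose and each sign opposite to that of LIN28A. For IGF2BP2 it was 0.44 (0.031), again with overlap at neither dose, and this call was lost with library totals as the scale and in 8 of the fits that leave out 1 library, the highest adjusted p being 0.162.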

How the results depend on the processing

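Alternatives were run for the 15 comparisons described with counts of members called, and not for the other pairs of groups tested along the order of levels. In those 15, calls on LIN28A, HMGA1 and HMGA2 kept their direction and their side of the threshold, apart from HMGA2 with SB4 in low Wnt, which lost its call without any of 3 libraries. The calls lost on LIN28B, IGF2BP1, IGF2BP2 and IGF2BP3 are named with the results, and the cause was not tested. Without the hESC libraries 5 members were called for TGFB in low Wnt and 5 for the difference of the TGFB effect between doses. For the difference of the SB4 effect 1 member was called with DESeq2 and 1 without the hESC libraries.

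Leaving out 1 library at a time gave 3 to 5 members called for high Wnt against low Wnt, 2 to 5 for TGFB in low Wnt, 1 to 2 for SB4 in high Wnt, 0 to 1 for SB4 in low Wnt, 2 to 5 for the difference of the TGFB effect and 0 to 1 for that of the SB4 effect. Genes called ranged over 538 to 1490 for TGFB in high Wnt (538 without high Wnt + TGFB replicate 1), 2347 to 4621 for TGFB in low Wnt (2347 without low Wnt + TGFB replicate 2), 1942 to 3956 for SB4 in high Wnt (1942 without high Wnt replicate 1), 784 to 2166 for SB4 in low Wnt (784 without low Wnt + SB4 replicate 2) and 1251 to 2189 for the difference of the TGFB effect (1251 without low Wnt + TGFB replicate 2).

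Signs that turned belonged to log2 fold changes near 0 that were not called. With library totals these were LIN28B in high Wnt + TGFB against low Wnt + TGFB (-0.0141) and for SB4 in high Wnt (0.0462). IGF2BP3 for SB4 in low Wnt turned with DESeq2 (-0.0014), RLE (-0.0015) and without the hESC libraries (-0.0082). With 1 library left out the ranges against hESC were -0.0702 to 0.291 for LIN28B in high Wnt + SB4, -0.0506 to 0.3045 for LIN28B in high Wnt, -0.0191 to 0.3375 for IGF2BP1 in high Wnt and -0.0352 to 0.2204 for IGF2BP3 in low Wnt + TGFB. Between doses they were -0.075 to 0.0939 for LIN28B with TGFB and -0.1181 to 0.011 for HMGA1 with SB4. For TGFB they were -0.1275 to 0.229 for IGF2BP1 in high Wnt and -0.0511 to 0.1685 for HMGA1 in low Wnt. For SB4 in high Wnt they were -0.2553 to 0.0902 for LIN28A, -0.0617 to 0.0308 for LIN28B and -0.075 to 0.2814 for IGF2BP1. For SB4 in low Wnt they were -0.0097 to 0.0563 for IGF2BP1, -0.0023 to 0.0704 for IGF2BP2 and -0.0878 to 0.1137 for IGF2BP3. For the difference of the SB4 effect they were -0.1002 to 0.2561 for IGF2BP1 and -0.0153 to 0.0709 for HMGA2.

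The labels do not say that replicate numbers mark a shared culture or day, and the numbers were not taken as pairs. Deviations of same-numbered libraries correlated between -0.116 and 0.206 over 21 pairs of groups, above 0.1 in 5 of them, which include the 3 pairs among the high Wnt groups. With the number as a replicate block 6 members were called in high Wnt + TGFB against hESC, where 5 were called without it (LIN28B was gained, adjusted p = 0.0395), and the other counts of members called were the same.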
